A study of Homo sapiens with 12 samples.

Results

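The E2F transcription factors and the pocket proteins that restrain them were followed through 10 genes, E2F1, E2F2, E2F3, E2F4, E2F5, E2F7, E2F8, RB1, RBL1 and RBL2, out of 19775 genes measured on Affymetrix expression arrays. The genes were taken by name from the platform annotation of the arrays. A probe set is a group of short oligonucleotides that together read 1 transcript, and each gene was described by the probe set naming that gene alone with the highest mean over the 12 arrays. The 10 genes had 22 such probe sets in all, and the other 12 served as a check.

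RNA came from U937, an established human myelomonocytic cell line, in which 4 groups of 3 arrays were compared. These were cells transduced with an EVI1 expression vector and given the phorbol ester TPA at 50 ng/ml, empty vector cells given TPA, EVI1 vector cells given ethanol as solvent, and empty vector cells given ethanol, all for 24 h. The MECOM locus encodes EVI1, a zinc finger regulator of blood stem cells, and TPA activates protein kinase C and drives these cells toward a macrophage-like state. All cells carried a vector. The submitters describe the 3 samples of a group as biological replicates, but no label shows separate transductions, so p-values between the populations may cover only the spread between cultures. The 5 probe sets for MECOM read between 2.59 and 3.32 on every array and none differed between the populations (smallest limma adjusted p = 0.118). Their position relative to the vector's insert was not compared, and the transduced cells are therefore called EVI1-labelled.

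E2F proteins bind DNA at the promoters of genes needed for DNA replication and mitosis, most of them as dimers with a DP partner. E2F1, E2F2 and E2F3 activate these genes in late G1 phase, E2F4 and E2F5 act mainly as repressors in resting cells, and E2F7 and E2F8 repress without a DP partner. The pocket proteins RB (encoded by RB1), p107 (RBL1) and p130 (RBL2) bind E2F proteins and hold the genes off until cyclin-dependent kinases phosphorylate them. When myeloid cells such as U937 leave the cell cycle during differentiation, RB becomes hypophosphorylated, p107 is characteristic of cycling cells and p130 of resting cells. Arrays measure none of the phosphorylation.

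Several genes of this group are themselves known E2F targets, so the promoter windows in which E2F site letters were found are shown before the values. RefSeq windows on GRCh38.p14 run from 250 bases before to 50 bases after a transcript start, and 8 of the 10 genes matched one; E2F5 and E2F8 did not. The transcript start of the RB1 window lies 172699 bases inside the gene. This window was not used, which left 9 windows of 7 genes. They were searched on both strands for TTTCCCGC, TTTGGCGC, TTTCGCGC and TTTGCCGC, and for the cell cycle homology element TTTGAA. The E2F letters were found in 4 of the 9 windows (44.4%), against 3.31% of all 35116 windows, and no match overlapped another. Capitals mark the E2F matches, which the counts beside each name give, on the gene's strand, given 5′ to 3′; where a match lies on the other strand, the capitals show its reverse complement.
E2F1 (chr20:33686336-33686635, minus strand, 2 matches): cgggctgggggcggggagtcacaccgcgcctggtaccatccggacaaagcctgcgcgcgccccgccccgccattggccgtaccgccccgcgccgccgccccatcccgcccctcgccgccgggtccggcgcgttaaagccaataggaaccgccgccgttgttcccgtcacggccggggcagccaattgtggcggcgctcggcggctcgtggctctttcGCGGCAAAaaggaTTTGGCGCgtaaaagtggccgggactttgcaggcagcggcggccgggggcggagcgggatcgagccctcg
E2F2 (chr1:23531184-23531483, minus strand, 1 match): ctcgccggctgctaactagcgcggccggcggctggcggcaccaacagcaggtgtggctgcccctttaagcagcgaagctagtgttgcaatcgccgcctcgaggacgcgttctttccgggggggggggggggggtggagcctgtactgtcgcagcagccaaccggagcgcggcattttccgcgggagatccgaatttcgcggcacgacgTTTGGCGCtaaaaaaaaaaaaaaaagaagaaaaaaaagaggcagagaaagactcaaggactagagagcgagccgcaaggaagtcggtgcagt
E2F3 (chr6:20401629-20401928, plus strand, 1 match): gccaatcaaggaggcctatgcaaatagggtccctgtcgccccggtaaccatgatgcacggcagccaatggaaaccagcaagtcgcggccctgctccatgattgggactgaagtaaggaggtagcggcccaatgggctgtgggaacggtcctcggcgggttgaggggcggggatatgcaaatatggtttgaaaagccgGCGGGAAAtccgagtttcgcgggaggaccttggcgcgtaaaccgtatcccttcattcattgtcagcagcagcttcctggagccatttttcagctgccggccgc
RBL1 (chr20:37095948-37096247, minus strand, 2 matches): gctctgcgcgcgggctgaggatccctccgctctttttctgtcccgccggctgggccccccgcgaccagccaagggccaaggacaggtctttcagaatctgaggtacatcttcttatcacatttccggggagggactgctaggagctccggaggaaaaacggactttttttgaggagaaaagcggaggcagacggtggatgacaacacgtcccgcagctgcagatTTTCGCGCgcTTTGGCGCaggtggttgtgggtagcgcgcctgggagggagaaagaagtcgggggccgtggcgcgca

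Counted from the start site, the matches of E2F1 lay at -33 and -20, that of E2F2 at -42, that of E2F3 at -53 and those of RBL1 at -26 and -16. The windows of E2F4 and E2F7, both windows of RBL2 and the second window of E2F3 held none of these letters, which says nothing of binding there. TTTGAA was found in the first windows of E2F3 and RBL2 and in 15.2% of all windows. Of the 4 genes with E2F letters, E2F1, E2F2 and RBL1 fell with TPA, as described next, and E2F3 was not called.

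After TPA, 5 of the 10 genes fell and 1 rose in each population. E2F8, E2F2, RBL1, E2F5 and E2F1 fell and RB1 rose in both EVI1-labelled and empty vector cells, while E2F3, E2F4, E2F7 and RBL2 were not called in either. A gene is called where limma's adjusted p, over all 19775 genes, is under 0.05. Over all genes, 20.6% were called lower and 19.4% higher with TPA in EVI1-labelled cells, and 22.5% lower and 20.7% higher in empty vector cells. The median change of the 10 genes was -0.31 in EVI1-labelled cells and -0.31 in empty vector cells, against 0 and 0.02 over all genes. These comparisons share no array. Values are log2 signals, each difference stands with its SE from the fit, and each group mean with the SD over 3 arrays. Without detection calls, the lowest array median, 5.07, served as a rough guide to weak signal.

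**Figure D1:**
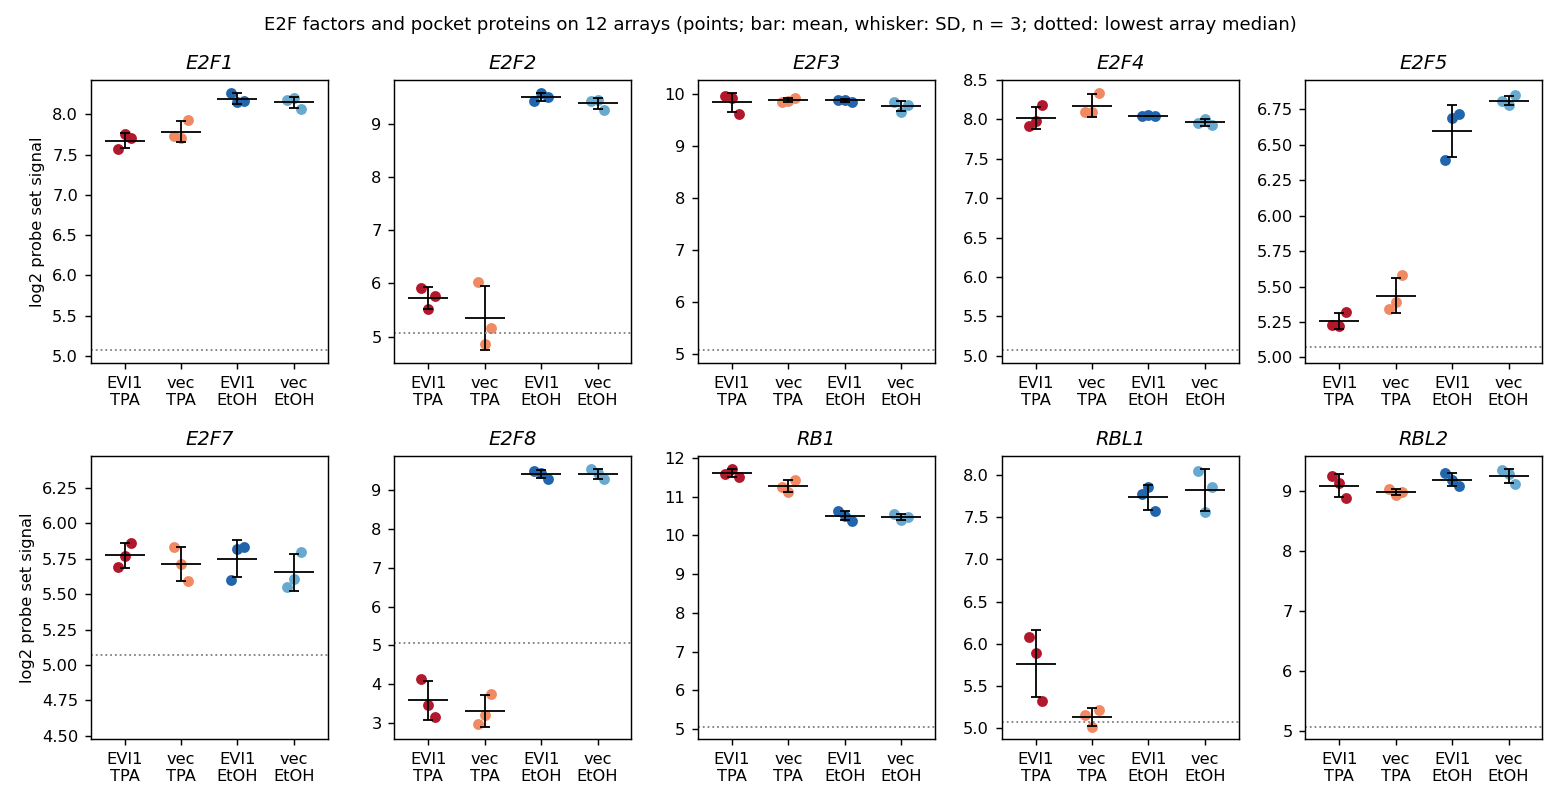
Log2 probe set signal (vertical axes, scaled per gene) of the 10 genes on the 12 arrays, in EVI1-labelled (EVI1) and empty vector (vec) cells given TPA or ethanol (EtOH). Points are arrays, bars the mean, whiskers the SD (n = 3), and the dotted line the lowest array median, 5.07; E2F8 with TPA lies below it on all 6 arrays.

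Among the activating factors, E2F2 showed the largest fall. The gene lies on chromosome 1 at 23505212 to 23531233 of GRCh38.p14, and its product drives entry into S phase. Its signal was 5.91, 5.51 and 5.77 with TPA, against 9.43, 9.59 and 9.50 with ethanol, in EVI1-labelled cells. Empty vector cells gave 6.02, 4.86 and 5.16 with TPA, against 9.44, 9.46 and 9.26 with ethanol. The groups were far apart in both populations, and the TPA-treated empty vector arrays were the most scattered. The differences were -3.78 ± 0.22 in EVI1-labelled cells (limma adjusted p = 5.02e-09) and -4.04 ± 0.22 in empty vector cells (adjusted p = 2.01e-09). The other 2 E2F2 probe sets also fell in both populations, but by less, with differences of -0.46 and -0.84 in EVI1-labelled cells and -0.46 and -0.79 in empty vector cells. Their ethanol means lay between 4.74 and 6.05, near the lowest array median.

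E2F1, the founding member of the family, at 33675477 to 33686385 on chromosome 20, fell by far less. It read 7.57, 7.75 and 7.70 with TPA, against 8.27, 8.15 and 8.16 with ethanol, in EVI1-labelled cells. In empty vector cells it read 7.73, 7.70 and 7.93 with TPA, against 8.18, 8.20 and 8.07 with ethanol. Each ethanol array lay above each TPA array, and TPA-treated cells kept a signal far above 5.07. The differences were -0.52 ± 0.09 in EVI1-labelled cells (adjusted p = 0.000188) and -0.36 ± 0.09 in empty vector cells (adjusted p = 0.00324). The check probe set gave -0.63 ± 0.11 in EVI1-labelled cells and -0.73 ± 0.11 in empty vector cells, called in both.

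E2F3, the third activator, at 20401879 to 20493714 on chromosome 6, read between 9.62 and 9.96 over all 12 arrays. Its TPA and ethanol groups overlapped in EVI1-labelled cells and lay narrowly apart in empty vector cells. Its TPA difference was -0.04 ± 0.09 in EVI1-labelled cells (95% interval -0.24 to 0.17) and 0.12 ± 0.09 in empty vector cells (-0.08 to 0.32). A change of the size seen for E2F2 is outside both intervals. Its check probe set, at -0.40 ± 0.17 in EVI1-labelled cells and 0.00 ± 0.17 in empty vector cells, was not called either. E2F3 produces transcripts from separate start sites, and which of them each probe set reads was not determined.

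Of the repressor class, E2F5 fell clearly while E2F4 depended on the probe set. E2F5, on chromosome 8 at 85177154 to 85214518, read 5.23, 5.22 and 5.32 with TPA, against 6.39, 6.69 and 6.72 with ethanol, in EVI1-labelled cells. The empty vector arrays read 5.34, 5.39 and 5.58 with TPA, against 6.81, 6.78 and 6.85 with ethanol. The groups did not overlap and the TPA arrays sat just above 5.07. The differences were -1.34 ± 0.10 in EVI1-labelled cells (adjusted p = 5.58e-08) and -1.38 ± 0.10 in empty vector cells (adjusted p = 3.49e-08). The other E2F5 probe set read between 2.66 and 3.37 throughout and was not called.

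E2F4, the most abundant E2F protein of resting cells in many tissues, lies on chromosome 16 at 67192155 to 67198918. By the probe set with the highest mean it read 7.91, 7.98 and 8.18 with TPA, against 8.04, 8.05 and 8.04 with ethanol, in EVI1-labelled cells. In empty vector cells it read 8.09, 8.09 and 8.34 with TPA, against 7.95, 8.01 and 7.93 with ethanol, so that the TPA arrays were all slightly higher there. The differences of -0.02 ± 0.09 in EVI1-labelled cells (adjusted p = 0.903) and 0.21 ± 0.09 in empty vector cells (adjusted p = 0.085) were not called. The check probe set gave another result: it read 6.36, 6.39 and 6.43 with TPA, against 6.79, 6.77 and 6.99 with ethanol, in EVI1-labelled cells. Empty vector cells gave 6.43, 6.60 and 6.62 with TPA, against 6.87, 6.89 and 6.87 with ethanol. It fell in both populations, with differences of -0.46 ± 0.09 (adjusted p = 0.000785) in EVI1-labelled cells and -0.33 ± 0.09 (adjusted p = 0.00857) in empty vector cells, adjusted over all probe sets. The first probe set carries the suffix by which the manufacturer marks probes picked under relaxed selection rules. No direction is given for E2F4, and why its probe sets differ was not tested.

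**Figure D2:**
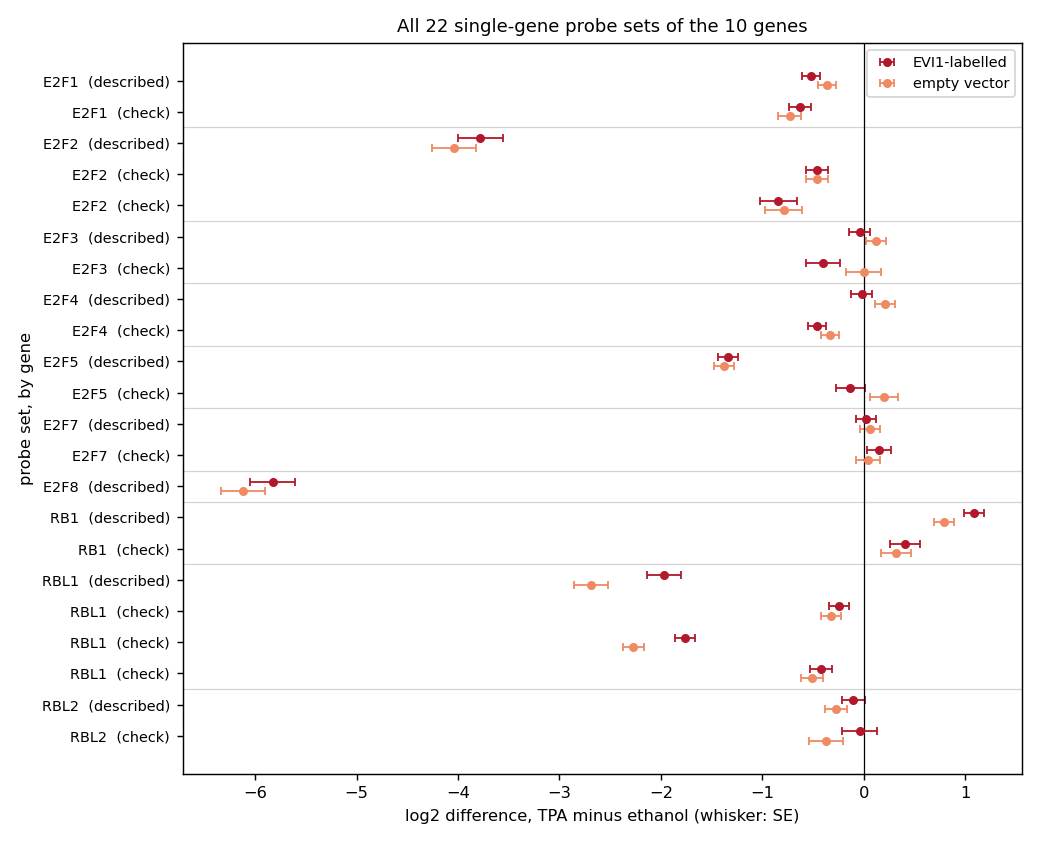
Log2 difference, TPA minus ethanol (horizontal axis, whisker SE), for all 22 single-gene probe sets of the 10 genes in EVI1-labelled and empty vector cells. The 2 E2F4 probe sets lie on opposite sides of 0 in empty vector cells (0.21 and -0.33), while the probe sets of E2F1, E2F2 and RBL1 all lie below 0 and those of RB1 above it.

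The atypical repressors, which carry a pair of DNA-binding domains and act without DP proteins, differed in outcome: E2F8 fell and E2F7 was not called. E2F8, on chromosome 11 at 19224063 to 19241655, read 4.13, 3.46 and 3.16 with TPA, against 9.49, 9.46 and 9.30 with ethanol, in EVI1-labelled cells. In empty vector cells it read 2.97, 3.20 and 3.75 with TPA, against 9.54, 9.45 and 9.29 with ethanol. All 6 TPA arrays were below the lowest array median, so the size of the fall is uncertain. The differences were -5.83 ± 0.22 in EVI1-labelled cells (adjusted p = 1e-10) and -6.12 ± 0.22 in empty vector cells (adjusted p = 4.66e-11). With every value under 5.07 raised to 5.07 the differences were -4.35 and -4.36, still the largest of the 10 genes. E2F8 had 1 probe set and no check.

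E2F7, on chromosome 12 at 77021251 to 77065569, read between 5.55 and 5.86 on all 12 arrays and its 4 groups overlapped. Its difference was 0.02 ± 0.10 in EVI1-labelled cells (95% interval -0.19 to 0.24) and 0.06 ± 0.10 in empty vector cells (-0.16 to 0.27). Its level was close to the lowest array median and its check probe set read between 2.79 and 3.25, so a fall could have gone undetected with these probes.

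**Figure D3:**
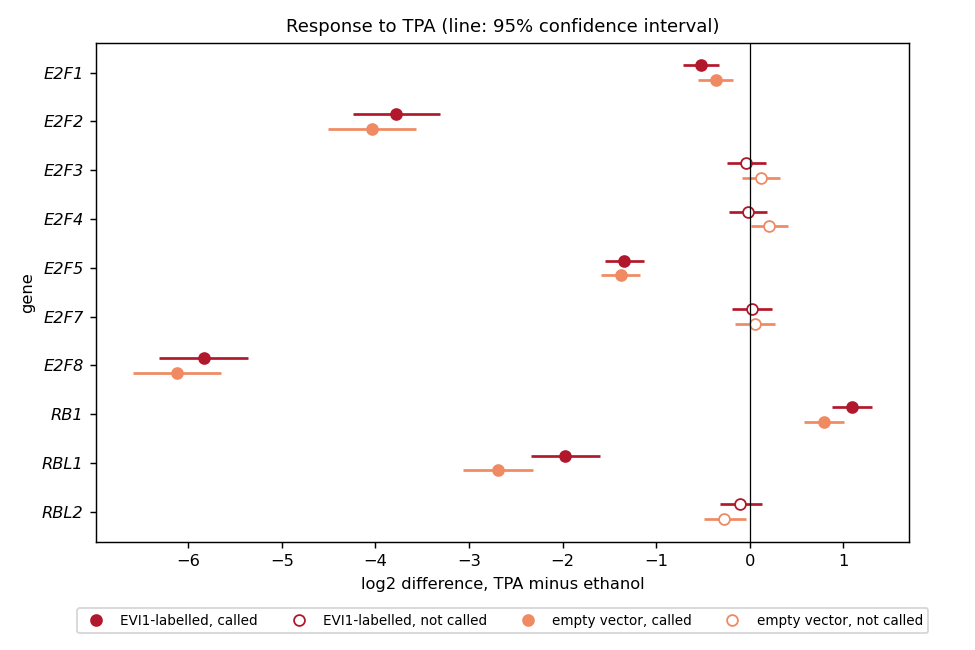
Log2 difference, TPA minus ethanol (horizontal axis), with its 95% confidence interval for each gene in EVI1-labelled and empty vector cells; filled points are called at an adjusted p under 0.05. E2F8, E2F2, RBL1, E2F5 and E2F1 lie below 0 in both populations, and RB1 lies above it, at 1.09 in EVI1-labelled and 0.79 in empty vector cells.

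Of the pocket protein genes, RB1 rose, RBL1 fell and RBL2 was not called. RB1, the retinoblastoma tumour suppressor gene, at 48303751 to 48481890 on chromosome 13, read 11.57, 11.71 and 11.51 with TPA, against 10.62, 10.51 and 10.38 with ethanol, in EVI1-labelled cells. The empty vector arrays read 11.25, 11.12 and 11.43 with TPA, against 10.56, 10.40 and 10.46 with ethanol. Every TPA array was above every ethanol array. The differences were 1.09 ± 0.10 in EVI1-labelled cells (adjusted p = 5.02e-07) and 0.79 ± 0.10 in empty vector cells (adjusted p = 1.06e-05), or 2.13-fold higher signal in EVI1-labelled cells and 1.73-fold in empty vector cells. Its check probe set, whose ethanol means were below 5.07, gave 0.41 ± 0.15 (adjusted p = 0.0555) in EVI1-labelled cells and 0.32 ± 0.15 (adjusted p = 0.128) in empty vector cells, in the same direction but not called.

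RBL1, which encodes p107 and lies on chromosome 20 at 36996349 to 37095997, fell strongly. It read 6.08, 5.89 and 5.32 with TPA, against 7.77, 7.86 and 7.57 with ethanol, in EVI1-labelled cells. Empty vector cells gave 5.16, 5.02 and 5.22 with TPA, against 8.05, 7.56 and 7.86 with ethanol. Empty vector cells with TPA sat at about the lowest array median, and the EVI1-labelled TPA arrays lay between them and the ethanol arrays. The differences were -1.97 ± 0.17 in EVI1-labelled cells (adjusted p = 3.35e-07) and -2.69 ± 0.17 in empty vector cells (adjusted p = 1.16e-08). A check probe set gave similar falls, -1.76 ± 0.10 in EVI1-labelled cells and -2.27 ± 0.10 in empty vector cells. The 2 remaining ones, with ethanol means of 3.11 to 4.58, ranged from -0.24 to -0.51, and 1 of them was not called in EVI1-labelled cells (adjusted p = 0.0845).

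RBL2, which encodes p130 and lies on chromosome 16 at 53434471 to 53491648, moved little. It read 9.26, 9.14 and 8.88 with TPA, against 9.30, 9.19 and 9.08 with ethanol, in EVI1-labelled cells. The empty vector arrays read 9.03, 8.94 and 8.99 with TPA, against 9.35, 9.29 and 9.12 with ethanol. The groups overlapped in EVI1-labelled cells and did not in empty vector cells. The difference was -0.10 ± 0.10 in EVI1-labelled cells (95% interval -0.32 to 0.13, adjusted p = 0.542). In empty vector cells it was -0.27 ± 0.10 (-0.49 to -0.04), just short of the threshold at an adjusted p of 0.0539, and several other settings called it lower. The RBL2 check probe set gave -0.04 ± 0.17 in EVI1-labelled cells and -0.37 ± 0.17 in empty vector cells. It was not called in either (limma adjusted p = 0.898 and 0.11 over all probe sets). No setting gave a rise of RBL2 with TPA past the threshold.

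Control probe sets moved with TPA too. The gap between 3′ and 5′ control probe sets, a sign of RNA integrity, was smaller with TPA. For ACTB its mean was 1.31 with TPA and 1.85 with ethanol (n = 6 each, two-sided exact permutation p = 0.00216). The GAPDH gap averaged 0.40 with TPA and 0.57 with ethanol (two-sided exact permutation p = 0.0476). Its part in the changes above was not tested. All 7 measured of 8 listed myelomonocytic markers, including SPI1, CSF1R, ITGB2 and PTPRC, had means above 5.07 in every group. Of markers of other lineages, EPCAM, KRT19, COL1A2, CD3E, CD2 and MS4A1 lay below 5.07 in every group, while KRT8, COL1A1, CD79A, ALAS2 and EPOR lay above it in every group. In bulk RNA, fewer cells in a state and less RNA per cell cannot be told apart.

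In TPA, RBL1 and RB1 were higher in EVI1-labelled than in empty vector cells, and the other 8 genes were not called. Over all genes 5.9% were called higher in this comparison. RBL1 averaged 5.76 ± 0.40 in EVI1-labelled cells and 5.13 ± 0.10 in empty vector cells (SD, n = 3 each), a difference of 0.63 ± 0.17 (adjusted p = 0.0298). RB1 averaged 11.60 ± 0.10 in EVI1-labelled cells and 11.27 ± 0.16 in empty vector cells, a difference of 0.33 ± 0.10 (adjusted p = 0.0478). In both genes each EVI1-labelled array was above each empty vector array, but the share of all genes separating so was not counted. Arrays of the same replicate number varied together between these 2 groups, and with the number as a block RBL1 kept its call (adjusted p = 0.0231) while RB1 lost it (adjusted p = 0.0585). RBL1 lost its call with signals under 5.07 raised to 5.07 (0.61 ± 0.20, adjusted p = 0.101) and with only these 2 groups fitted (0.63 ± 0.18, adjusted p = 0.0812); its empty vector TPA arrays lay at 5.02 to 5.22.

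Neither call was stable when arrays were left out. Leaving out 1 array at a time, RBL1 lost its call without 5 of the 12 arrays, EVI1-labelled TPA replicates 1 and 2 and each of the 3 empty vector TPA replicates. Its difference then ranged from 0.47 to 0.67 with a highest adjusted p of 0.116, and it was 0.85 without EVI1-labelled TPA replicate 3. The check probe set with similar TPA falls was called higher by 0.48 ± 0.10 (adjusted p = 0.00903 over all probe sets), but both its TPA means, 4.21 in EVI1-labelled cells and 3.73 in empty vector cells, were below 5.07. The 2 remaining RBL1 probe sets, at 0.09 and 0.10, were not called. RB1 lost its call without 10 of the 12 arrays, all but EVI1-labelled TPA replicate 3 and empty vector TPA replicate 3, with a highest adjusted p of 0.18. Its difference ranged from 0.26 to 0.41. Without any 1 ethanol array, none of which enters this difference, it stayed at 0.33 with limma adjusted p of 0.0505 to 0.0672. With all arrays that adjusted p was 0.0478, already close to the threshold. Without empty vector TPA replicate 1, the array with the highest E2F2 value of that group, E2F2 was higher by 0.72 ± 0.13 in EVI1-labelled cells (adjusted p = 0.00405). With all arrays its difference was 0.38 ± 0.22 (adjusted p = 0.341).

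**Figure D4:**
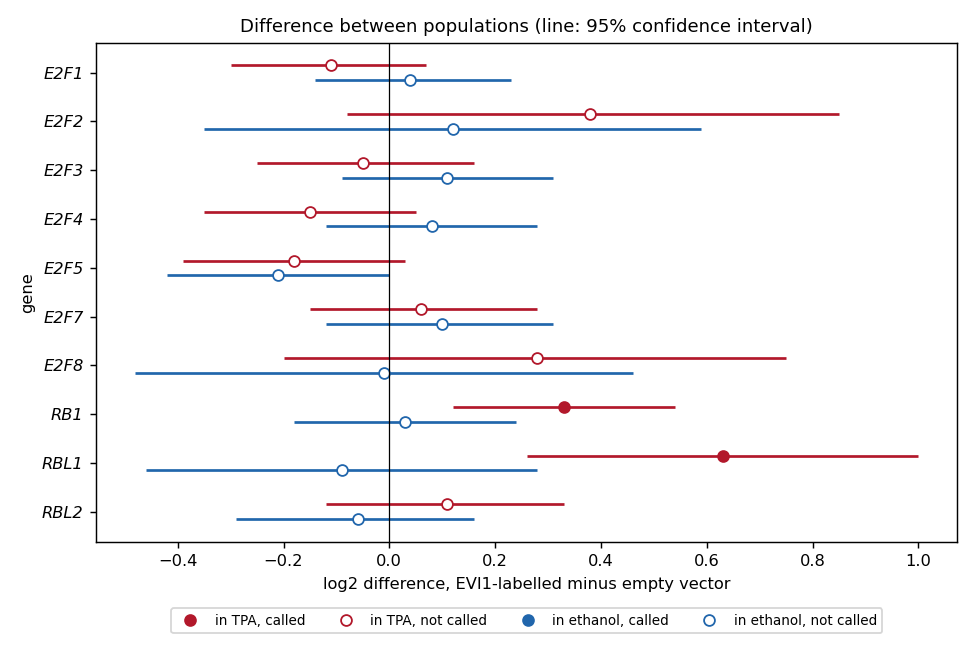
Log2 difference, EVI1-labelled minus empty vector cells (horizontal axis), with its 95% confidence interval for each gene in TPA and in ethanol; filled points are called at an adjusted p under 0.05. RBL1 (0.63) and RB1 (0.33) in TPA are the filled points, and none of the 10 genes is filled in ethanol.

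In ethanol none of the 10 genes was called between the populations by limma, against 3.27% of all genes. At an unadjusted p under 0.05 there was 1, E2F5, at 6.60 ± 0.18 in EVI1-labelled cells and 6.81 ± 0.04 in empty vector cells, a difference of -0.21 ± 0.10 (adjusted p = 0.386). Its 3 EVI1-labelled arrays were all below the 3 empty vector arrays, in ethanol and in TPA, where it was not called either (limma adjusted p = 0.319). The E2F4 arrays in ethanol did not overlap between the populations either (adjusted p = 0.835). The share of all genes whose arrays separate in this way was not counted in any comparison. For the genes other than E2F5 the differences in ethanol ran from -0.09 for RBL1 to 0.12 for E2F2. The 95% interval was -0.14 to 0.23 for E2F1, -0.18 to 0.24 for RB1 and -0.48 to 0.46 for E2F8.

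The response to TPA itself was not shown to differ between the populations for any of the 10 genes, where 1.98% of all genes were called by limma. At an unadjusted p under 0.05 there was again 1, RBL1, whose fall was smaller in EVI1-labelled cells by 0.72 ± 0.24 (95% interval 0.20 to 1.24, adjusted p = 0.195). Without EVI1-labelled TPA replicate 3, the lowest RBL1 value of that group, this difference was 0.94 ± 0.18 with an adjusted p of 0.0151. The rise of RB1 was larger in EVI1-labelled cells by 0.30 ± 0.14 (0.00 to 0.60, adjusted p = 0.403). For E2F8 the difference was 0.29 ± 0.31 and for E2F2 0.26 ± 0.31, with intervals of -0.38 to 0.95 and -0.40 to 0.92, so a difference of that size could not be detected here.

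The genes most like each member were sought as those with the smallest root mean square difference, after centring each gene, over the 12 arrays, among 9885 genes above the median level. E2F8 was closest to MCM10, a DNA replication factor, at 0.336, and to CDCA7 at 0.398. E2F2 was closest to FEN1, a flap endonuclease of lagging strand synthesis, at 0.174, and to the replicative helicase subunit MCM3 at 0.201. RBL1 was closest to TTF2 and CPAP, at 0.146 and 0.156, RB1 to CHMP2A and B3GNT2, at 0.088 and 0.091, E2F5 to SLC1A5 and ICMT, at 0.099 and 0.107, and E2F1 to NEURL4 and FIBP, at 0.067 and 0.078. The genes closest to the 4 that were not called were ISCU and YWHAB for E2F3, LINC01134 and IGHMBP2 for E2F4, HAX1 and STRADA for E2F7, and TAF11 and CYB5B for RBL2, at 0.06 to 0.078. E2F3, E2F4, E2F7 and RBL2 varied little, with an SD over the 12 arrays of 0.1 to 0.15, against 3.14 for E2F8. A small distance therefore says little for them. The 12 arrays form 4 groups and are not 12 separate conditions.

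The partners through which E2F and pocket proteins act also changed with TPA. TFDP1, the main DP partner, fell in both populations, with differences of -1.98 ± 0.09 in EVI1-labelled cells and -2.04 ± 0.09 in empty vector cells. TFDP2 fell too, with -0.50 in EVI1-labelled cells and -0.71 in empty vector cells. E2F6, a repressor that binds no pocket protein, was at 0.34 ± 0.13 in EVI1-labelled cells (adjusted p = 0.0561) and rose by 0.37 ± 0.13 in empty vector cells (adjusted p = 0.034). The MuvB core joins p130 or p107 with E2F4 in the DREAM repressor complex. A list of 9 genes held genes of this core, its MYB and FOXM1 partners, and DYRK1A. Of these 9 genes, 7 fell and 1 rose in each population. Their median was -0.89 in EVI1-labelled cells and -1.03 in empty vector cells. FOXM1, a mitotic activator, was at -3.85 ± 0.14 in EVI1-labelled cells and -4.54 ± 0.14 in empty vector cells. MYBL2, the MuvB partner of S phase, was at -2.93 ± 0.14 in EVI1-labelled cells and -3.05 ± 0.14 in empty vector cells. LIN37, a MuvB subunit needed for repression by DREAM, rose by 0.75 in EVI1-labelled cells and by 0.65 in empty vector cells. The gene not called was MYBL1, at 0.13 in EVI1-labelled cells and -0.05 in empty vector cells.

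Most kinases that phosphorylate the pocket proteins fell, while their inhibitors were mixed. Of 9 cyclins and kinases that phosphorylate them, 7 fell and 1 rose in each population, with a median of -2.04 in EVI1-labelled cells and -1.98 in empty vector cells. CCNE2 was at -4.56 ± 0.19 in EVI1-labelled cells and -4.46 ± 0.19 in empty vector cells, and CCNA2 at -4.13 ± 0.32 in EVI1-labelled cells and -4.71 ± 0.32 in empty vector cells. CCND1, a D cyclin, rose by 1.42 ± 0.13 in EVI1-labelled cells and by 0.83 ± 0.13 in empty vector cells, and both its ethanol means were below 5.07. The gene not called was CDK6 in EVI1-labelled cells, at -0.20, and CCND3 in empty vector cells, at 0.15. Of 7 CDK inhibitor genes listed, 6 were measured, and 4 rose and 2 fell in each population. CDKN2B, an inhibitor of CDK4 and CDK6, was at 5.72 ± 0.19 in EVI1-labelled cells and 5.57 ± 0.19 in empty vector cells, and its ethanol means, 3.43 in EVI1-labelled cells and 3.25 in empty vector cells, were weak. CDKN1A, which encodes p21, was at 4.05 ± 0.11 in EVI1-labelled cells and 4.87 ± 0.11 in empty vector cells. CDKN1B, which encodes p27, fell, with -0.94 in EVI1-labelled cells and -1.35 in empty vector cells, as did CDKN2D, with -0.75 in EVI1-labelled cells and -0.55 in empty vector cells.

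The listed target genes of the G1/S transition and of G2/M fell almost without exception. All 26 measured of 28 listed E2F targets of the G1/S transition fell in each population, with a median of -3.72 in EVI1-labelled cells and -3.89 in empty vector cells, against 0 and 0.02 over all genes. CDT1, a replication licensing factor, was at -4.81 ± 0.16 in EVI1-labelled cells and -5.25 ± 0.16 in empty vector cells, with both TPA means below 5.07 and the size therefore uncertain, and UHRF1 at -4.95 ± 0.31 in EVI1-labelled cells and -5.14 ± 0.31 in empty vector cells. The smallest fall was that of SLBP, the histone mRNA binding protein, at -1.37 in EVI1-labelled cells and -1.28 in empty vector cells. Of 20 G2/M genes known to be bound by DREAM, 19 fell in each population, with medians of -3.69 in EVI1-labelled cells and -4.65 in empty vector cells, and CDC25C, below 5.07 in every group, was not called. KIF20A had the largest fall of these G2/M genes, at -5.36 ± 0.52 in EVI1-labelled cells and -5.69 ± 0.52 in empty vector cells. TTK followed, at -4.68 ± 0.49 in EVI1-labelled cells and -5.63 ± 0.49 in empty vector cells. The TPA means of KIF20A in both populations and of TTK in empty vector cells were below 5.07, so those sizes are uncertain. CCNE1 and CCNE2 stand in both the kinase list and the target list, so the counts of those lists are not independent. In the promoter windows of the listed G1/S targets, 13 of 23 genes held the E2F letters and 2 held TTTGAA. Of the G2/M genes, 11 of 16 held TTTGAA and 2 held the E2F letters. Over all 27305 genes with a window, 1090 held the E2F letters and 4961 held TTTGAA.

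**Figure D5:**
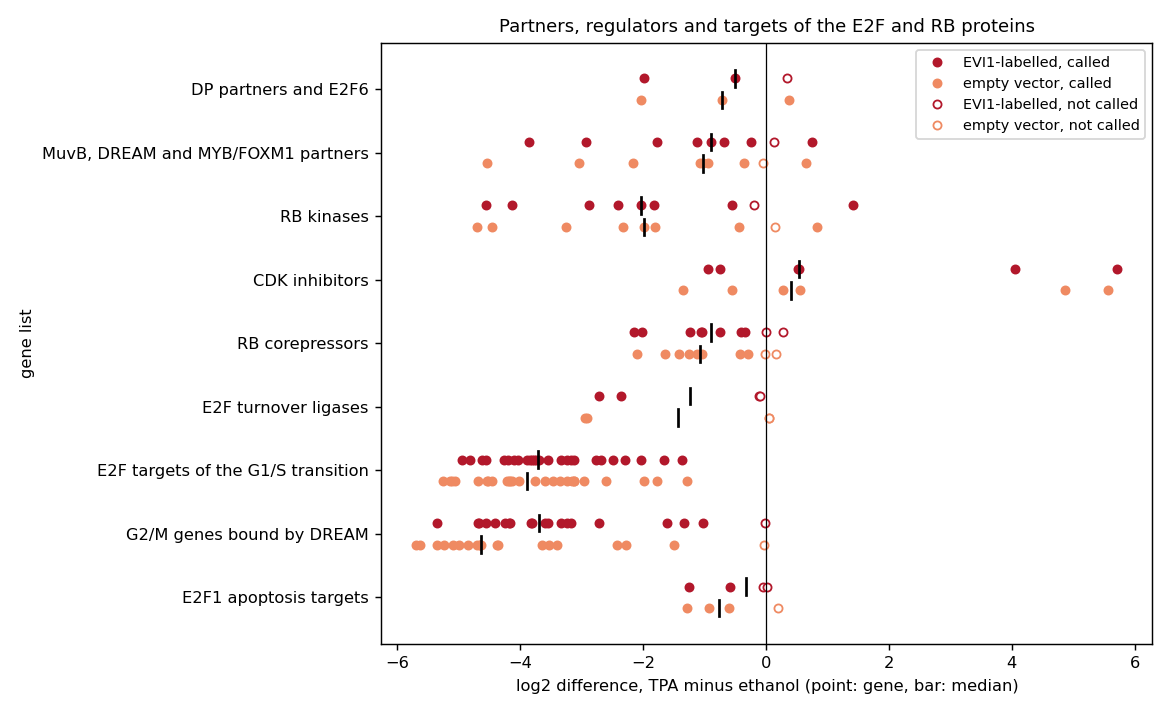
Log2 difference, TPA minus ethanol (horizontal axis), of the genes in 9 lists of partners, regulators and targets in EVI1-labelled and empty vector cells; points are genes, filled where called, and bars the list medians. The targets of the G1/S transition lie below 0 in both populations, with medians of -3.72 in EVI1-labelled and -3.89 in empty vector cells, and CDKN1A and CDKN2B lie furthest above it.

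Between the populations in TPA, 4 of the 26 G1/S targets and 2 of the 20 G2/M genes were higher in EVI1-labelled cells and none lower, among them MCM7 by 0.91 ± 0.25 (adjusted p = 0.0317), CCNB2 by 1.40 ± 0.11 (adjusted p = 6.32e-06) and BUB1 by 1.20 ± 0.32 (adjusted p = 0.0254). Over all genes 5.9% were higher, and 2 of 20 is near that share. The list medians were 0.21 for the G1/S targets and 0.60 for the G2/M genes, against 0.01 over all genes. SEs in the G2/M list reached 0.67, so a difference of the size of its median could go uncalled. CDC6, also a G1/S target, was higher by 0.55 ± 0.16 (limma adjusted p = 0.0427), with both TPA means below 5.07. FOXM1 was higher by 0.70 ± 0.14, with an empty vector mean of 4.68, below 5.07, and RBBP4, a MuvB subunit, by 0.56 ± 0.11. Of the kinase list CDK6 was higher by 0.93 ± 0.09 in TPA and by 0.69 ± 0.09 in ethanol, CCND1 by 0.48 ± 0.13 in TPA, and CCND3 was lower in TPA, at -0.69 ± 0.11. Among the CDK inhibitors CDKN1B was higher by 0.53 ± 0.13 in TPA and CDKN2A by 0.35 ± 0.08, and CDKN1A was higher by 0.74 ± 0.11 in ethanol. In ethanol none of the 26 G1/S targets and none of the 20 G2/M genes was called.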

How the data were processed

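The authors' deposited values are log2 expression values per probe set. The submitters' processing notes name RMA and Expression Console 1.3. RMA corrects background, gives all arrays 1 distribution and summarises probes, which removes any shift shared by most genes. No file column was left without a sample. Array medians lay between 5.07 and 5.11 and arrays of a group correlated at 0.991 to 0.997. The annotation named 1 gene for 41091 of 54613 probe sets that are not controls; each of 19775 genes kept the probe set with the highest mean.

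Differences were tested over all genes in R 4.3.3 with limma 3.58.1. The model fitted a mean for each group to all 12 arrays with empirical Bayes moderation. Tests were two-sided, adjusted by Benjamini-Hochberg, and called at 0.05. The fit was tried on simulated data whose arrays varied independently, which does not cover arrays of the same replicate number varying together. The number of arrays limits the precision: over all genes the SE had a median of 0.11 between groups and of 0.15 for a difference in response. Members and lists were chosen with earlier results of these data known. Named genes were all members, up to 2 raised and 2 lowered genes of each list per simple comparison, MECOM and the 2 genes most like each member; SLBP, CDC25C, MYBL1, E2F6 and the other list genes that were exceptions to a count were named after their values were seen. Between the TPA-treated populations, arrays of the same replicate number correlated in their deviations at 0.415, 0.13 and 0.151. Between the other groups compared these correlations ran from 0.075 to 0.208. In every comparison they exceeded the highest correlation with another number. The main fit used no block, so its p-values take no account of this. The replicate block was fitted as an alternative in all comparisons. Alternatives were another probe set per gene, probe set means, all probe sets, a filter on dim genes, a floor, quantile normalization, median centring, other moderation, the compared groups alone, the replicate block and each array left out.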

Additional observations from a re-analysis of the deposited data

Results flagged for a closer look

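None of the 10 genes met a rule for a closer look, but 4 genes of the pathway lists differed between the populations in their response to TPA, by the test of that difference in limma. They were 1 of 9 kinase list genes, 1 of 6 CDK inhibitors, 1 of 20 G2/M genes and 1 of 4 apoptosis targets of E2F1. None was called in the other lists, and over all genes 1.98% were called. CCNB2, a mitotic cyclin, fell in both, with log2 differences of -1.02 in EVI1-labelled cells and -2.42 in empty vector cells, a difference of 1.40 ± 0.16 (adjusted p = 0.000595). CDKN1A rose by 4.05 in EVI1-labelled cells and 4.87 in empty vector cells, a difference of -0.81 ± 0.16 (adjusted p = 0.0224). Its TPA means were alike, at 12.57 in EVI1-labelled cells and 12.64 in empty vector cells. The populations differed in ethanol, at 8.51 and 7.78 in the same order. BCL2L11, a pro-apoptotic BCL2 family gene, was at 0.01 in EVI1-labelled cells and -0.93 in empty vector cells, a difference of 0.95 ± 0.21 (adjusted p = 0.0365). CCND3 was at -0.55 in EVI1-labelled cells and 0.15 in empty vector cells, a difference of -0.70 ± 0.16 (adjusted p = 0.0377). For these 4 genes the test was not repeated with arrays left out.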

How the results depend on the processing

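The 6 calls for TPA in each population kept their direction and call under every alternative in which the gene was tested, with each array left out included; E2F5 and E2F7 are not tested when dim genes are left out. The sign of E2F4 in empty vector cells turned to -0.33 with the probe set of largest SD; with dim genes left out E2F4 was called higher there (0.21, adjusted p = 0.0443), and in EVI1-labelled cells it was called lower with the largest-SD probe set (-0.46) and with probe set means (-0.24, adjusted p = 0.0193). RBL2 in empty vector cells was called lower under 9 alternatives, among them the replicate block (adjusted p = 0.0177). Between populations in TPA, 2 members were called. The count was 1 with the largest-SD probe set, with probe set means, with all probe sets tested and with the replicate block, and 0 with the floor or with only the groups compared. It ranged from 0 to 2 with each array left out. For the difference in response it ranged from 0 to 1, the 1 being RBL1. The replicate block changed no other call of a member. Over all genes, 2214 were called between the populations in TPA, 1241 with only those groups fitted and 3830 of 54613 with all probe sets. For the difference in response 392 were called, 226 with the floor, and 188 to 681 with arrays left out, lowest without empty vector ethanol replicate 1 and highest without EVI1-labelled TPA replicate 3. In ethanol 647 were called, 369 to 787 with arrays left out, lowest without EVI1-labelled ethanol replicate 2. Signal near or below 5.07 limits detection for E2F8, E2F5, E2F2, RBL1 and E2F7 with TPA.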

Other observations

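Chromatin partners of RB fell with TPA in most cases. Of 11 listed genes 10 were measured, and 8 of them fell in each population, with a median of -0.89 in EVI1-labelled cells and -1.08 in empty vector cells. SUV39H1, a histone H3 methyltransferase recruited by RB, was at -2.15 ± 0.10 in EVI1-labelled cells and -2.10 ± 0.10 in empty vector cells, and DNMT1, the maintenance DNA methyltransferase, at -2.01 ± 0.12 in EVI1-labelled cells and -1.64 ± 0.12 in empty vector cells. HDAC1 and KDM5A were not called in either population. Between the populations HDAC2 was higher by 0.31 ± 0.07 in TPA in EVI1-labelled cells, and SIN3A was at -0.36 ± 0.08 in ethanol.

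Of 4 genes of ubiquitin ligases that degrade E2F proteins, SKP2 fell in both populations, with -2.72 in EVI1-labelled cells and -2.91 in empty vector cells. CCNF fell too, with -2.36 in EVI1-labelled cells and -2.94 in empty vector cells, while FZR1 and CDC27 were not called. Of 7 genes by which E2F1 is known to promote apoptosis, 4 were measured. PMAIP1 was at -1.25 in EVI1-labelled cells and -1.28 in empty vector cells, and APAF1 at -0.59 in EVI1-labelled cells and -0.60 in empty vector cells, all called. BCL2L11 fell in empty vector cells, by 0.93, and TP73 was not called in either population. Between the populations in TPA, BCL2L11 was higher in EVI1-labelled cells by 1.00 ± 0.15 (limma adjusted p = 0.000582). PMAIP1 was higher there by 0.41 ± 0.10 (adjusted p = 0.0139), and APAF1 and TP73 were not called. Over all genes 5.9% were higher in that comparison.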
